A study of Mus musculus with 3 samples.

Results

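The 10 genes described here encode vascular growth factors and related signals of liver blood vessels: Pdgfb, Vegfc, Angpt2, Inhbb, Inhba, Hgf, Ccn1, Ccn2, Edn1 and Ednrb. They were chosen from the 55421 genes of the deposited tables because Pdgfb and Vegfc were lower, and Inhbb higher, in endothelial cells of a mouse given a high-iron diet than in its control. That contrast therefore chose the genes, and its values in endothelial cells are given as a description only. The study sequenced RNA from single liver cells of 3 wild-type (WT) mice, 1 mouse a group. All 3 mice had eaten an iron-deficient diet with 2 to 6 ppm iron for 1 week. The control mouse, IDD, received nothing further. The mouse labelled IDD+HTF received 10 mg of holo-transferrin, the blood protein transferrin with iron bound to it, through the tail vein at a time the labels do not give. The mouse labelled IDD+HID was then fed a diet with 2% carbonyl iron for 18 h. Livers were dissociated with collagenase and pronase, and a small part of the hepatocyte suspension was added to the non-parenchymal cells, so cell shares here do not give the makeup of the liver. The labels give no age or sex.

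Endothelial cells send signals to their neighbours, called angiocrine factors, as well as carrying blood. In the liver the sinusoidal endothelium lines the capillaries beside the hepatocytes and is a source of BMP ligands, through which body iron sets hepcidin, and of WNT ligands and HGF. PDGF-B recruits pericytes and stellate cells through PDGFRB, VEGF-C acts on endothelial and lymphatic cells through VEGFR-3, and angiopoietin-2 modulates the TIE2 receptor. Inhbb and Inhba encode the subunits of activin B and activin A, of which activin B can drive hepcidin through SMAD proteins. CCN1 and CCN2 are secreted matrix proteins and classical targets of YAP, TAZ and TEAD. Endothelin-1, from Edn1, contracts stellate and smooth muscle cells through the receptor EDNRA, while EDNRB on endothelium clears the peptide and releases nitric oxide.

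The libraries held 34552858, 55478904 and 75404660 UMIs (unique molecular identifiers, each standing for 1 counted RNA molecule), in the order IDD, IDD+HTF, IDD+HID kept throughout, and 1311, 3203 and 3538 cells passed the filters. Each pair of libraries shared 1 cell barcode. The IDD library was the shallowest: its sinusoidal cells had a median of 3051.5 UMIs, against 5703 and 9904.5, and ribosomal and repeat RNA made up 9.99% of their UMIs, against 5.63% and 3.24%. Depth and this RNA therefore move with the groups in every comparison below, and their part in the results was not tested. Levels are given as UMIs per 1000000 UMIs of the same cells (CPM). Because each group is 1 mouse, no difference was tested. Intervals are 95% exact intervals for counting error only and leave out differences between mice. UMIs were counted at the 3′ end of transcripts, so levels are compared between cells and libraries and not between genes.

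Promoter sequence is shown for 4 of the genes that the differences below turn on: Edn1, Ednrb, Ccn1 and Inhbb. Edn1 and Ednrb, a ligand and its receptor, differed in opposite directions in the summed UMIs of an endothelial cluster, where Edn1 rests on very few cells. Each sequence is the 250 bases before the transcription start that RefSeq gives on GRCm38.p6, 5′ to 3′ on the gene's strand. Capitals mark any of 8 motifs searched on both strands. The windows lie at chr13:42301226-42301475 on the plus strand for Edn1, and on the minus strand at chr14:103843702-103843951 for Ednrb, chr3:145649986-145650235 for Ccn1 and chr1:119422249-119422498 for Inhbb.
Edn1: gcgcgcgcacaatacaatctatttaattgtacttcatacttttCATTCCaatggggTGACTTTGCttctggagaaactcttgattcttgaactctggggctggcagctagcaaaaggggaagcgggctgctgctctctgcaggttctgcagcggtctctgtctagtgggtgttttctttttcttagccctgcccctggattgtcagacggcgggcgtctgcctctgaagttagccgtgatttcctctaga
Ednrb: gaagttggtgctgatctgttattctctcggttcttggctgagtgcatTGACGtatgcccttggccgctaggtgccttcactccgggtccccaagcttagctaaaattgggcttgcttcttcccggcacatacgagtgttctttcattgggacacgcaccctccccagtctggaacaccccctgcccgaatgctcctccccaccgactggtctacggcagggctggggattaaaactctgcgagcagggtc
Ccn1: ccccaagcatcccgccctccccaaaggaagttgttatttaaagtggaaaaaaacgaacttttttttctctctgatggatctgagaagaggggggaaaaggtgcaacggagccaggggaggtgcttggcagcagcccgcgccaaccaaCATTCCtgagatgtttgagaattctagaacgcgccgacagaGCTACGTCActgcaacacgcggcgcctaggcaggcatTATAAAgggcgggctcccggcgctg
Inhbb: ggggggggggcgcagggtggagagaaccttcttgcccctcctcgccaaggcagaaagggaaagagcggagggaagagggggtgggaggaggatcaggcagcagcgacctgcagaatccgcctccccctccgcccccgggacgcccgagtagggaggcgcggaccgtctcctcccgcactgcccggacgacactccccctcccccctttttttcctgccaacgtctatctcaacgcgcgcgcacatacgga

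The motifs searched were TGANTCA, which AP-1 binds, GGAATG, which TEAD proteins bind, and TGACG, the core of the cyclic AMP element (CRE). Others were AGATAA for GATA factors, ACGTG as the core of the hypoxia element, CAGACA for SMAD proteins, TGACNNNGC as the antioxidant element core and TATAAA as the TATA box. Edn1 had a TEAD match that began 207 bases before the start and an antioxidant core match at 194. Ccn1 had a TEAD match at 103, overlapping antioxidant core and CRE core matches at 62 and 58, and a TATA box at 25. Ednrb had a CRE core match at 203. The Inhbb window is 68% G and C and held none of the 8. Among 32851 promoter windows of the same length, 12.6% held the TEAD letters, 10.2% the antioxidant core, 17.8% the CRE core and 12.4% the TATA box, so each of these matches is common. They describe letters, not binding. RefSeq promoters were matched for 7 of the 10 genes, and Pdgfb, Angpt2 and Ccn2 had none in the table used.

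On GRCm38 with the GENCODE M21 annotation, the genes lie at chr15:79995874-80014977 (Pdgfb), chr8:54077606-54187096 (Vegfc), chr8:18690263-18741562 (Angpt2), chr1:119415465-119422248 (Inhbb) and chr13:16011851-16031621 (Inhba). The others lie at chr5:16553495-16620152 (Hgf), chr3:145646976-145649981 (Ccn1), chr10:24595442-24598683 (Ccn2), chr13:42301476-42307990 (Edn1) and chr14:103814625-103844402 (Ednrb). By this annotation the Ednrb window shown above lies inside the gene, as the RefSeq start used is downstream of the GENCODE start.

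Cells were clustered without these 10 genes and their pathway partners, and the clusters were named from marker genes. The sinusoidal endothelial-like class held 392, 901 and 1180 cells. All 10 sinusoidal markers, such as Stab2 and Clec4g, were detected there, at 16318, 18835 and 18626 CPM in sum. It was made up mainly of clusters 1 and 12, and their balance differed between libraries: cluster 1 gave 226, 304 and 321 cells and cluster 12, led by Cxcl10, Nfkbiz and the immediate-early gene Egr1, gave 58, 405 and 700. Endothelial clusters 9 and 13 were small, with 25, 28 and 63 cells and with 26, 50 and 89. Within the endothelium they were set apart by a higher mean of the list of vascular markers, genes of larger vessels. Against the median of all clusters, however, their best-matching list was still the sinusoidal one, and the leading genes of cluster 9 include sinusoidal Clec4g. They are therefore given no finer name and are called by number. Their pooled values are given only for shares of UMIs, for sinusoidal RNA carried over and for alternative settings. Stellate-like cells, the pericytes of the sinusoid, numbered 136, 141 and 113, Kupffer-like cells, the resident macrophages, 194, 515 and 677, and hepatocyte-like cells 246, 1032 and 261.

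The genes differed in where they were found. Inhbb was mainly sinusoidal: that class held 75%, 76.1% and 74.0% of its UMIs over all cells. Angpt2 was too, with 55.3%, 81.6% and 71.5% of its UMIs there. Edn1 was found in clusters 9 and 13, which together held 96.5%, 69.3% and 72.7% of its UMIs. Pdgfb came mostly from Kupffer-like cells, which held 55.4%, 77.1% and 75.9% of its UMIs. These shares depend on how many cells of each kind were captured as well as on the level per cell.

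Several genes were divided between stellate and endothelial cells. Hgf was highest in stellate-like cells, at 1027, 815 and 832 CPM, against 128, 180 and 205 in sinusoidal cells. The sinusoidal cells, being more numerous, nevertheless held 19.2%, 41.8% and 54.9% of its UMIs. Ccn1 was high in stellate-like cells and in clusters 9 and 13. Vegfc was found in cluster 13, at 280, 284 and 190 CPM, and in stellate-like cells, at 80.8, 60.9 and 53.2, but in cluster 9 it had 0, 0 and 1.53 CPM. Inhba was low in every class of 50 or more cells, reaching 36.4 CPM in stellate-like cells of IDD+HTF and 24.6 in hepatocyte-like cells of the same library. Apart from Inhba and Ccn1, which reached 22.5 CPM in IDD, no member exceeded 9.0 CPM in hepatocyte-like cells.

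**Figure D1:**
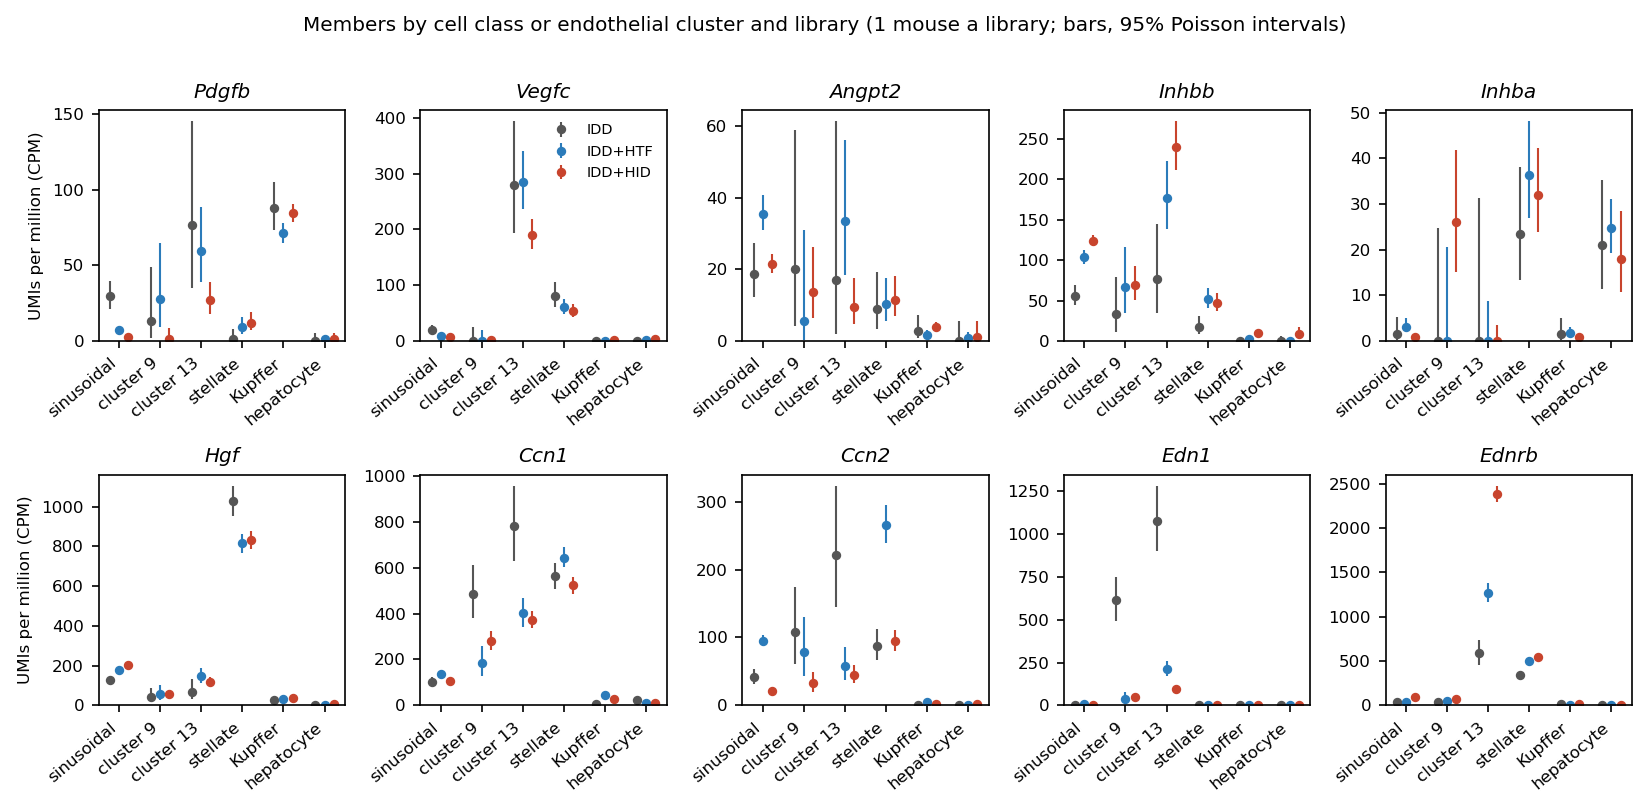
Level of each of the 10 genes (CPM, linear axis that starts at 0 and differs between panels) in 4 cell classes and 2 endothelial clusters of the 3 libraries. Points are 1 mouse each and bars are 95% Poisson intervals of the count. Edn1 stands at 612 and 1079 CPM in clusters 9 and 13 of IDD and near 0 in the 4 classes, and Pdgfb is highest in Kupffer-like cells of every library.

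Free RNA limits what low levels can show. In droplets with at most 100 UMIs, which hold no intact cell, Pdgfb was present at 3.71, 4.58 and 12.6 CPM, Vegfc at 1.86, 2.75 and 5.52, and Inhbb at 4.24, 9.16 and 15.4. The Pdgfb level in sinusoidal cells of IDD+HID, 2.77 CPM, is below that of the droplets of its own library. This comparison alone cannot say how much of that level is free RNA.

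In sinusoidal cells, 8 of the 10 genes had at least 50 UMIs in each pair of libraries and are counted as measured, and Inhba and Edn1 did not. A gene was called where its CPM differed by at least 1.5-fold. Between IDD+HID and IDD, the contrast that chose the genes, Inhbb, Hgf and Ednrb were higher and Pdgfb, Vegfc and Ccn2 lower. Of all 12148 genes measured in these cells, 15.4% were called higher and 19% lower. Between IDD+HTF and IDD, Inhbb, Ccn2 and Angpt2 were higher and Pdgfb and Vegfc lower, where 10.4% of all measured genes were higher and 9.46% lower. This comparison uses the same IDD library, so its values are no separate check of the first. Between IDD+HID and IDD+HTF, which leaves IDD out, Ednrb was higher and Pdgfb, Ccn2 and Angpt2 lower, against 5.06% higher and 12.4% lower among all genes. The median log2 ratio of the 8 genes was 0.13, 0.45 and -0.39 in these 3 comparisons, beside 0.02, 0.04 and -0.01 over all measured genes. Scaling by the trimmed mean of M values (TMM) in place of total UMIs adds 0.21, 0.12 and 0.10 to every log2 ratio of these cells.

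**Figure D2:**
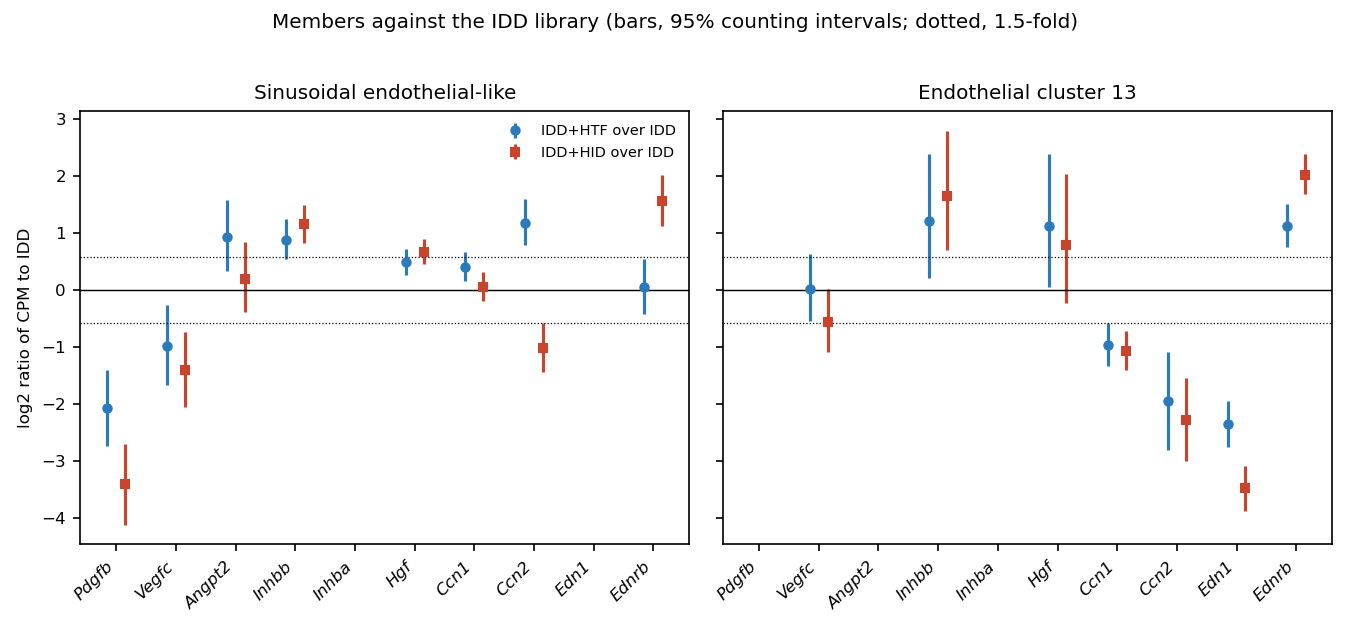
Log2 ratio of CPM over IDD for each measured gene in sinusoidal endothelial-like cells and in cluster 13, with circles for IDD+HTF and squares for IDD+HID. Bars are 95% intervals for counting error, and both ratios share the IDD library. Inhbb lies above 0 in both panels, and Edn1 appears only for cluster 13, where it lies below 0.

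Pdgfb in sinusoidal cells stood at 29.4, 6.98 and 2.77 CPM, from 41, 40 and 32 UMIs. The IDD library was highest, and the level was 10.6-fold lower in IDD+HID (95% interval 6.53 to 17.4) and 4.21-fold lower in IDD+HTF (2.66 to 6.68). The IDD value rests on few cells: 19 of 392 held the 41 UMIs, and 1 cell held 11 of them. Without the cell of each library with the most Pdgfb UMIs, the log2 ratios over IDD were -3.16 in IDD+HID and -1.75 in IDD+HTF. With every cell thinned to 1000 UMIs, so that depth is equal, the share of cells with a Pdgfb UMI was 1.91%, 0.57% and 0.24%. The order was the same in cluster 1, at 27.8, 5.95 and 2.10 CPM, and in cluster 12, at 56.2, 8.70 and 3.03, although neither reached 50 UMIs against IDD. The 17 UMIs of IDD in cluster 12 fell to 6 without the cell with the most. Cluster 12 then held 20.6, 7.80 and 2.55 CPM, in the same order. In cluster 13 Pdgfb stood at 76.4, 59.7 and 26.9 CPM from 9, 25 and 28 UMIs, and was 2.22-fold lower in IDD+HID than in IDD+HTF (1.24 to 3.95). There 1 cell of IDD held 6 of the 9 UMIs. Without the cell of each library with the most Pdgfb UMIs, cluster 13 held 26.4, 53.4 and 23.3 CPM, so IDD was no longer highest. Without 2 such cells it held 8.93, 49.4 and 20.6.

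Kupffer-like cells held the most Pdgfb UMIs in each library. The level of the class was 88.0, 71.0 and 84.3 CPM from 124, 475 and 783 UMIs, which puts IDD+HID 1.04-fold below IDD (0.86 to 1.26) and IDD+HTF 1.24-fold below it (1.01 to 1.51). At 1000 UMIs a cell, 7.90%, 6.23% and 7.58% of Kupffer-like cells held a Pdgfb UMI. The class joins clusters whose shares differed between libraries: cluster 21 gave 13, 73 and 306 of its cells. Cluster 3, with 78, 285 and 207 cells, held 89.1, 69.5 and 82.7 CPM. Cluster 4, with 102, 128 and 127 cells, held 109, 48.1 and 43.1 CPM from 37, 23 and 18 UMIs, 2.52-fold lower in IDD+HID than in IDD (1.40 to 4.71) and 2.26-fold lower in IDD+HTF (1.31 to 3.99). IDD was thus highest in cluster 4, while the libraries lay nearer to each other in cluster 3 and in the class as a whole. Kupffer RNA in the sinusoidal cells, measured by Kupffer markers at 72.4, 148 and 134 CPM, would bring 0.215, 0.320 and 0.404 CPM of Pdgfb at the ratio of the Kupffer-like class. NK or ILC1-like cells of IDD+HID had 59.7 CPM. The receptor gene Pdgfrb was at most 0.52 CPM in sinusoidal cells and stood at 467, 295 and 199 CPM in stellate-like cells.

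Vegfc in sinusoidal cells stood at 19.4, 9.77 and 7.26 CPM, from 27, 56 and 84 UMIs. IDD was highest, by 2.67-fold over IDD+HID (1.66 to 4.16) and 1.98-fold over IDD+HTF (1.20 to 3.19), and the treated libraries differed by 1.34-fold with an interval that includes no difference (0.94 to 1.91). At equal depth 1.65%, 0.80% and 0.76% of cells held a UMI. Cluster 12 held 43.0, 10.9 and 6.06 CPM, from 13, 35 and 50 UMIs, and cluster 1 held 16.2, 8.93 and 9.78. In cluster 13, where Vegfc was most abundant, IDD and IDD+HTF differed by 1.01-fold, and IDD+HID was 1.47-fold below IDD (0.99 to 2.14) and 1.5-fold below IDD+HTF (1.18 to 1.89). The VEGF receptor gene Kdr stood at 2070, 2338 and 2997 CPM in sinusoidal cells. The VEGF-C receptor gene Flt4 stood at 603, 782 and 962 CPM, and was 1.59-fold higher in IDD+HID than in IDD (1.49 to 1.71).

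Angpt2, which marks activated endothelium, had its own order. Sinusoidal cells held 18.6, 35.6 and 21.4 CPM from 26, 204 and 248 UMIs, so that IDD+HTF was highest, 1.91-fold above IDD (1.27 to 2.99) and 1.66-fold above IDD+HID (1.37 to 2.01). IDD+HID and IDD differed by 1.15-fold (0.77 to 1.80). No single cell set these values, since at most 6 UMIs came from 1 cell of IDD+HTF. Cluster 1 gave 16.2, 40.2 and 31.8 CPM and cluster 12 gave 19.8, 34.8 and 17.8, so the IDD+HID level relative to IDD differed between them. Tek, which encodes the angiopoietin receptor TIE2, stood at 310.5, 379 and 410 CPM.

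Inhbb, for the activin B subunit, was higher in both treated libraries. Sinusoidal cells held 55.9, 103 and 124 CPM from 78, 592 and 1437 UMIs. The level was 2.22-fold above IDD in IDD+HID (1.77 to 2.83) and 1.85-fold in IDD+HTF (1.46 to 2.37), and IDD+HID exceeded IDD+HTF by 1.20-fold (1.09 to 1.33). The share of cells with a UMI was 15.1%, 32.0% and 54.3%, and at equal depth 4.53%, 7.64% and 10.8%. The order was the same in cluster 1, at 57.8, 115 and 144 CPM, in cluster 12, at 56.2, 100.4 and 120, and in cluster 13, at 76.4, 177 and 240. In cluster 13 the interval of the 3.14-fold difference between IDD+HID and IDD is wide (1.63 to 6.95), as IDD gave only 9 UMIs. Inhba, for the activin A subunit, had 2, 18 and 9 UMIs in sinusoidal cells and none in cluster 13, and no ratio is given. The activin receptor gene Acvr2a stood at 35.9, 36.1 and 29.4 CPM in sinusoidal cells.

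Hgf, the ligand of the hepatocyte receptor MET, was also higher in the treated libraries in sinusoidal cells. Its level was 128, 180 and 205 CPM from 179, 1032 and 2372 UMIs, 1.60-fold above IDD in IDD+HID (1.37 to 1.87) and 1.40-fold in IDD+HTF (1.20 to 1.65). At equal depth 10.5%, 12.5% and 16.5% of cells held a UMI. Cluster 1 held 110, 183 and 218 CPM and cluster 12 held 195, 191 and 204. The closeness of the libraries in cluster 12 rests on few cells of IDD, which gave 59 UMIs. Without the cell of each library with the most Hgf UMIs, cluster 12 held 141, 186 and 199 CPM. Without 2 such cells it held 125, 183 and 197, with IDD lowest as in cluster 1. In stellate-like cells, where Hgf is highest, IDD had the highest level of the 3 libraries. Met was nearly absent from sinusoidal cells, at 1.43, 2.44 and 2.42 CPM, and stood at 22.5, 35.7 and 18.0 in hepatocyte-like cells.

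Ccn2 was highest in IDD+HTF. Sinusoidal cells held 41.6, 94.5 and 20.5 CPM from 58, 542 and 237 UMIs, so IDD+HTF was 2.27-fold above IDD (1.73 to 3.03) and IDD+HID was 2.03-fold below it (1.5 to 2.7). The treated libraries differed by 4.61-fold (4.0 to 5.4). The clusters divided this pattern. Cluster 1 held 31.2, 136 and 32.1 CPM, so IDD+HTF alone stood apart. Cluster 12 held 76.0, 72.7 and 16.6 CPM, which puts IDD+HID 4.58-fold below IDD (2.81 to 7.16). The IDD value of cluster 12 rests on 23 UMIs in 5 cells: without the cell of each library with the most Ccn2 UMIs this difference was 2.03-fold, and without 2 such cells the cluster held 13.4, 46.8 and 13.4 CPM, with IDD and IDD+HID alike. In the whole class, the 2.03-fold difference between them was 1.65-fold without 1 such cell and 1.48-fold without 2. Within each cluster IDD+HID lay below IDD+HTF. When classes were named from the marker scores of single cells in place of clusters, the log2 ratio of IDD+HID over IDD turned to 1.42, so its direction depends on how the cells are named. At equal depth, 2.57%, 4.65% and 1.61% of sinusoidal cells held a Ccn2 UMI.

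Ccn1 differed less in the sinusoidal class as a whole. It stood at 103, 137 and 107 CPM, and IDD+HID and IDD differed by 1.04-fold (0.87 to 1.24). Cluster 1 held 77.5, 67.0 and 49.3 CPM and cluster 12 held 221, 193 and 131. Without the cell of each library with the most Ccn1 UMIs, neither cluster kept its call of Ccn1 as lower in IDD+HID than in IDD. The differences were then 1.43-fold in cluster 1 and 1.19-fold in cluster 12. The cluster 1 value stayed within the counting interval of its main ratio, and the cluster 12 value did not.

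Edn1 was found mainly in clusters 9 and 13. Among endothelial cells its receptor gene Ednrb was highest in cluster 13, while stellate-like cells held 58.5%, 44.4% and 18.1% of all Ednrb UMIs. Neither gene was used for clustering, but the differences between clusters are not results, and only the libraries are compared. Of the genes measured in cluster 13, 7 in each comparison with IDD, Inhbb, Hgf and Ednrb were higher and Ccn1, Ccn2 and Edn1 lower in IDD+HID, where 31.2% of all measured genes were called higher and 11.8% lower. The same 3 genes were higher and the same 3 lower in IDD+HTF, against 19.4% and 8.17% of all genes. Between IDD+HID and IDD+HTF, of 8 measured, Ednrb was higher and Edn1 and Pdgfb lower, against 12.8% and 7.81%. Hgf in cluster 13 stood at 67.9, 148 and 118 CPM, from only 8 UMIs in IDD against 62 and 123. In clusters 9 and 13 pooled, sinusoidal RNA, judged by its markers, would bring 74.4, 107 and 138 CPM of Hgf, next to measured levels of 52.6, 120 and 93.9. For Inhbb it would bring 32.4, 61.3 and 83.5 CPM, next to 52.6, 144 and 174. These estimates count all sinusoidal markers there as carried over, although the sinusoidal list matched both clusters best. For Hgf the estimate exceeded the measured level in IDD and IDD+HID, so it is too high there. The part of sinusoidal RNA in these calls was not tested.

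Ednrb in cluster 13 stood at 586, 1274 and 2385 CPM, from 69, 533 and 2484 UMIs. The 3 libraries were separate from each other: IDD+HID was 4.07-fold above IDD (3.20 to 5.25) and 1.87-fold above IDD+HTF (1.70 to 2.06), and IDD+HTF was 2.17-fold above IDD (1.69 to 2.84). Ednrb was found in 61.5%, 78% and 84.3% of the cells of cluster 13, and at equal depth in 35.4%, 49.2% and 66.3%. Vascular markers in cluster 13 stood at 2803, 3501 and 2729 CPM in sum, so they did not follow the same order. Sinusoidal markers there, which did, stood at 6489, 7776 and 9677 CPM, and their part in the Ednrb values was not tested. In sinusoidal cells Ednrb stood at 32.3, 33.3 and 95.3 CPM. There IDD+HID stood apart, 2.95-fold above IDD (2.19 to 4.07) and 2.86-fold above IDD+HTF (2.45 to 3.35), with 2.32%, 2.84% and 6.49% of cells positive at equal depth. In cluster 1 the values were 25.4, 21.8 and 95.7 CPM. Cluster 12 gave 72.7, 37.3 and 93.7, where IDD+HID and IDD differed by 1.29-fold with an interval that includes no difference (0.85 to 2.07). Without the 2 cells of each library with the most Ednrb UMIs, cluster 12 held 27.3, 29.7 and 84.7 CPM.

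Edn1 in cluster 13 stood at 1079, 210 and 96.0 CPM, from 127, 88 and 100 UMIs. IDD was highest, by 11.2-fold over IDD+HID (8.58 to 14.7) and 5.13-fold over IDD+HTF (3.88 to 6.81), and IDD+HTF was 2.19-fold above IDD+HID (1.63 to 2.95). These values rest on very few cells, and the intervals, which treat UMIs as independent, do not show it. In IDD 7 of 26 cells held a UMI, and 2 cells held 71 and 44, which is 90.6% of the total. Cluster 9 was alike, at 612, 38.9 and 50.6 CPM, with 5 positive cells in IDD, of which 2 held 89.0% of the UMIs. Without the cell of each library with the most Edn1 UMIs, cluster 13 held 545, 188 and 62.2 CPM. Without 2 such cells it held 121, 165 and 51.1, so that IDD lay below IDD+HTF. The Edn1 difference between IDD and IDD+HTF thus rests on 2 cells, and the difference between IDD and IDD+HID then measured 2.37-fold from 12 and 52 UMIs. In cluster 9, 10, 0 and 5 UMIs were left without 2 such cells. Ednra, the contractile receptor, was at most 0.72 CPM in sinusoidal cells and stood at 306, 209 and 183 CPM in stellate-like cells.

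In summed UMIs the CCN genes in cluster 13 were highest in IDD. Ccn1 stood at 781, 401 and 373 CPM, 2.10-fold lower in IDD+HID than in IDD (1.65 to 2.64) and 1.95-fold lower in IDD+HTF (1.49 to 2.52). In IDD 1 cell held 38 of the 92 Ccn1 UMIs. Without the cell of each library with the most, cluster 13 held 475, 353 and 339 CPM, so the differences of 1.40-fold and 1.35-fold no longer reached 1.5-fold. Without 2 such cells it held 323, 315 and 311 CPM, with the libraries alike. Ccn2 stood at 221, 57.4 and 45.1 CPM, 4.89-fold lower in IDD+HID (2.91 to 8.06) and 3.85-fold lower in IDD+HTF (2.12 to 7.00). In IDD 17 of 26 Ccn2 UMIs came from 1 cell, and without the cell of each library with the most, the differences were 3.02-fold and 2.10-fold. IDD+HTF thus lay below IDD in Ccn2 here and above it in the sinusoidal class. In cluster 9, of 4 genes measured between IDD+HID and IDD, Inhbb and Ednrb were higher and Ccn1 and Edn1 lower, where 19% of all measured genes were higher and 10.4% lower. Both higher calls rest on few UMIs, as Inhbb and Ednrb each had 5 in IDD against 45 in IDD+HID. Against IDD+HTF only Ccn1 and Edn1 were measured there, both lower, with 15.9% of genes higher and 11% lower. Between the treated libraries 3 were measured, and Ccn1 and Ednrb were higher in IDD+HID, with 16.1% and 10.3% of all genes. Ednrb had only 8 UMIs there in IDD+HTF. The Ccn1 level of cluster 9 in IDD+HTF, 183 CPM, came from 33 UMIs of which 1 cell held 29.

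**Figure D3:**
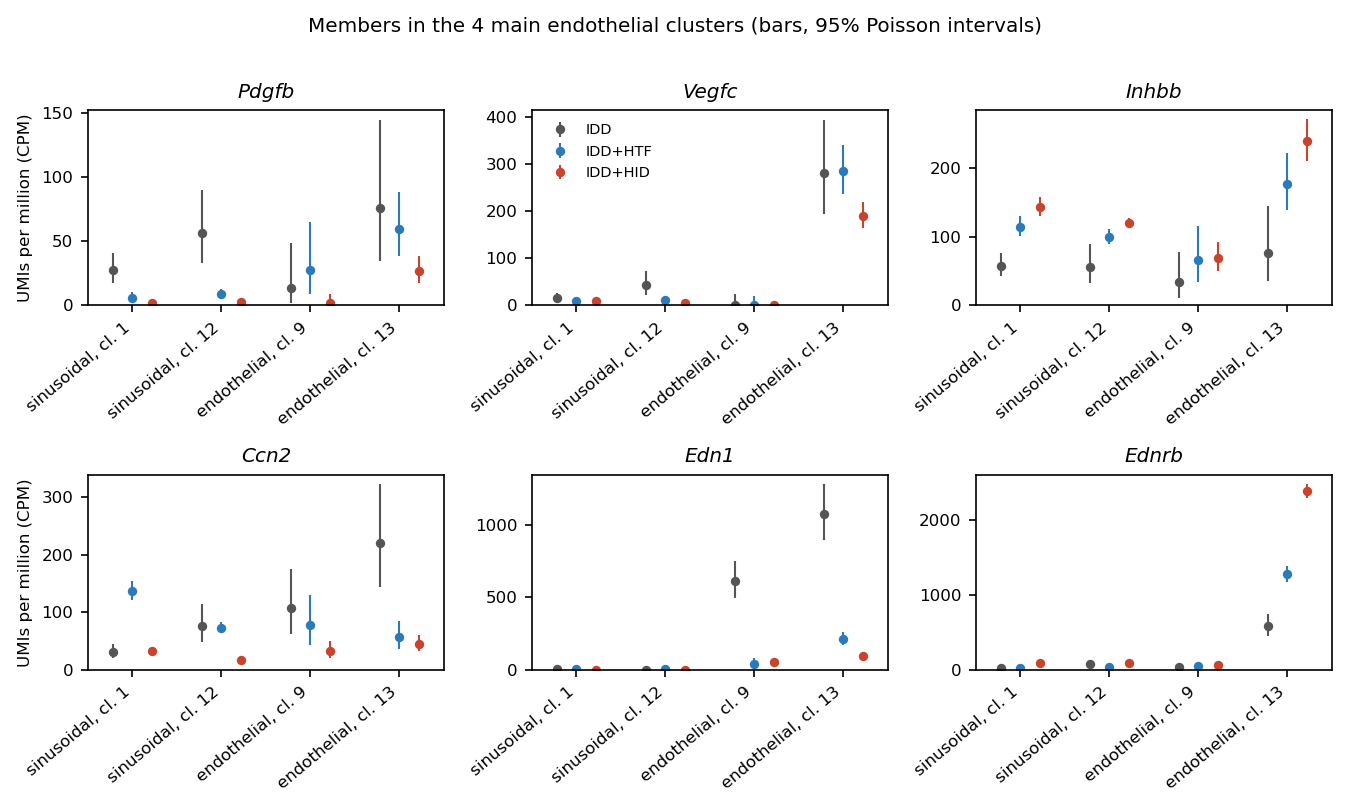
Level of 6 genes (CPM, linear axis from 0, different for each panel) in sinusoidal clusters 1 and 12 and endothelial clusters 9 and 13 of the 3 libraries, with 95% Poisson intervals. Ednrb in cluster 13 runs from 586 in IDD to 2385 in IDD+HID while Edn1 runs from 1079 to 96.0, and Ccn2 in cluster 1 is high only in IDD+HTF.

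Within the sinusoidal class, cluster 1 had 6 genes measured against IDD. In IDD+HID, Inhbb, Hgf, Angpt2 and Ednrb were higher and Ccn1 lower, beside 18.1% of all measured genes higher and 13.4% lower. In IDD+HTF, Inhbb, Hgf, Ccn2 and Angpt2 were higher and none lower, beside 12% and 8.53%. In cluster 12, of 7 measured between IDD+HID and IDD, Inhbb was higher and Ccn1, Ccn2 and Vegfc lower, beside 23.4% and 17.2%. Of 6 measured there between IDD+HTF and IDD, Inhbb and Angpt2 were higher and Ednrb lower, beside 18.6% and 9.39%. In IDD+HID over IDD+HTF, cluster 1 had 6 genes measured, with Ednrb higher and Ccn2 lower, beside 6.01% and 7.73% of all genes. Cluster 12 had 8, with Ednrb higher and Ccn2, Angpt2, Vegfc and Pdgfb lower, beside 5.99% and 12.1%. Without the 2 cells of each library with the most UMIs of the gene, the calls of Ccn1 against IDD in both clusters, and in cluster 12 those of Ccn2 in IDD+HID and Ednrb in IDD+HTF, were lost. Inhbb was the gene called higher over IDD in both clusters and both treated libraries.

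In stellate-like cells, 7 genes were measured in each comparison. In IDD+HID over IDD, Inhbb and Ednrb were higher and Vegfc lower, where 31% of all measured genes were higher and 15.8% lower. Without the cell of each library with the most Vegfc UMIs, the Vegfc level of IDD+HID was 1.43-fold lower. Between IDD+HTF and IDD, Inhbb, Ccn2 and Inhba were higher and none lower, where 23.8% were higher and 10.6% lower. Between the treated libraries only Ccn2 was called, lower in IDD+HID, where 8.91% were higher and 8.53% lower. Sinusoidal RNA also differed between the libraries in these cells: sinusoidal markers stood at 4300, 8866 and 8813 CPM and Kupffer markers at 27.9, 1877 and 1463. At that level sinusoidal RNA would bring 14.7, 48.6 and 58.8 CPM of Inhbb, next to measured levels of 17.6, 52.0 and 47.4. In the 78, 70 and 63 stellate-like cells with sinusoidal markers under 0.2% of their UMIs, a limit set after the values were seen, Inhbb had 0 UMIs in every library. Stellate Inhbb is therefore not shown by these data to differ.

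Ednrb and Ccn2 kept their differences in those 78, 70 and 63 cells. Ednrb stood at 339.5, 500.7 and 549.7 CPM in all stellate-like cells and at 489, 1027 and 952 in those with few sinusoidal markers, where IDD+HID was 1.95-fold (1.62 to 2.35) and IDD+HTF 2.10-fold (1.75 to 2.53) above IDD. Ccn2 stood at 86.7, 266 and 94.2 CPM in all, and at 63.0, 320 and 90.5 in the subset, where IDD+HTF was 5.08-fold above IDD (3.18 to 8.49). IDD+HTF was thus the library with the highest Ccn2 in both sinusoidal and stellate-like cells. Kupffer markers in the subset were 27.0, 2364 and 807 CPM, and their part in these values was not tested. Vegfc did not keep its difference, at 81.0, 78.8 and 88.1 CPM. Hgf had another order in the subset, at 1113, 1273 and 1514 CPM, with IDD lowest. Inhba stood at 23.5, 36.4 and 32.0 CPM in all stellate-like cells, and the interval of its 1.55-fold difference between IDD+HTF and IDD includes no difference (0.87 to 2.92).

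In Kupffer-like cells, apart from Pdgfb, the genes were low. Of 5 measured between IDD+HID and IDD, Inhbb and Ccn1 were higher and none lower, where 16.6% of all measured genes were higher and 8.37% lower. Of 4 measured between IDD+HTF and IDD, Ccn1 was higher and Ednrb lower, where 13.4% were higher and 5.81% lower. Between the treated libraries 6 were measured, of which Inhbb and Ednrb were higher and Ccn1 and Ccn2 lower in IDD+HID, where 6.8% were higher and 7.51% lower. Ccn1 stood at 7.10, 45.9 and 29.0 CPM, 6.46-fold above IDD in IDD+HTF (3.47 to 13.6) and 4.08-fold in IDD+HID (2.19 to 8.61). These levels are below the 35.0, 59.5 and 57.6 CPM of the free-RNA droplets. Inhbb, at 0, 2.99 and 10.3 CPM, lies below the 3.66, 9.98 and 15.3 CPM that sinusoidal RNA in these cells would bring, and Ednrb in IDD rests on 1 cell with 18 of 19 UMIs, without which the order of IDD and IDD+HTF turned.

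Pathway partners of the 10 genes were counted in 10 lists of 109 genes, on the same terms, in sinusoidal cells. In the list of other liver angiocrine factors, between IDD+HID and IDD, 6 of 11 measured were higher and 2 lower, with a median log2 ratio of 0.74 beside 0.02 for all genes. Of all measured genes 15.4% were called higher and 19% lower there. Bmp6, the main BMP ligand by which sinusoidal cells report iron to hepatocytes, stood at 66.0, 101 and 159 CPM, 2.41-fold higher in IDD+HID than in IDD (1.96 to 3.01). Bmp2, its partner ligand, was 1.75-fold higher and the WNT ligand genes Wnt2 and Wnt9b were 1.67-fold and 2.72-fold higher. Rspo3, which amplifies WNT signals, was 2.25-fold higher (1.36 to 3.98), and Igf1 1.51-fold lower. Dkk3 was also called higher and Cxcl12 lower, each with an interval that includes no difference. Between IDD+HTF and IDD 3 of 10 were higher (Dkk3, Rspo3 and Bmp6) and Fgf1 was lower, with a median of 0.35, beside 10.4% higher and 9.46% lower of all genes. Between the treated libraries Wnt9b, Bmp6 and Fgf1 were higher in IDD+HID, and Dkk3 and Igf1 lower, of 11, beside 5.06% and 12.4%.

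The members' direct partners were counted in the other 9 lists. In IDD+HID over IDD, where 15.4% of all genes were called higher and 19% lower, none of 2 measured PDGF genes, 4 angiopoietin and TIE genes or 3 endothelin genes was called. Among 7 VEGF ligands and receptors Flt4 was higher. Among 6 activin genes the receptor gene Acvr1 was 1.57-fold higher and Acvr2b 2.09-fold lower. Among 3 genes of HGF activation St14, a membrane protease gene, was 2.43-fold lower, and among 10 genes of the CCN family, YAP, TAZ and TEAD Axl was higher. Among 6 tip cell and sprouting genes Esm1 was 3.74-fold higher (1.42 to 13.9), from 4 and 124 UMIs, and the Notch ligand gene Dll4 1.55-fold lower. Among 12 transcription factors of flow and quiescence Klf4 was 2.71-fold higher (2.48 to 2.97) and Meis1 1.57-fold lower.

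Between IDD+HTF and IDD, 10.4% of all measured genes were called higher and 9.46% lower. There the same lists gave Adm and Esm1 higher among 5 sprouting genes, and Prox1, Klf4 and the flow-responsive Klf2 higher among 12 transcription factors. Acvr2b was lower among 5 activin genes and St14 among 4 HGF genes, while Axl was higher and Tead1 lower among 9 CCN and TEAD genes. The 1 PDGF, 7 VEGF, 3 angiopoietin and 2 endothelin genes measured had no call. Between the treated libraries, 5.06% of all measured genes were called higher in IDD+HID and 12.4% lower. There Unc5b was higher and Dll4 and Adm lower in IDD+HID among 6 sprouting genes, and Klf4 was higher and Prox1 lower among 12 transcription factors. The PDGF, VEGF, angiopoietin, activin, CCN and endothelin lists had no call in that comparison.

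**Figure D4:**
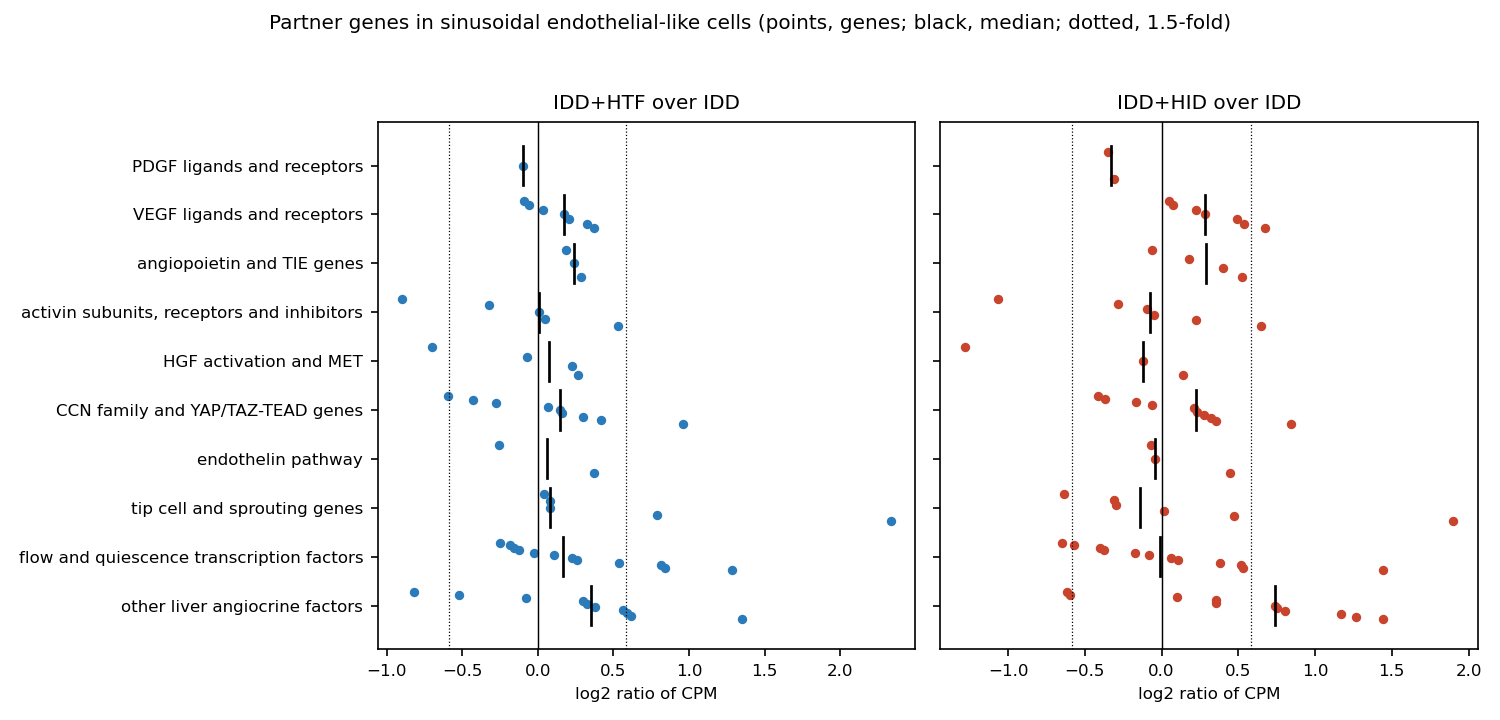
Log2 ratio of CPM over IDD in sinusoidal endothelial-like cells for each measured gene of the 10 partner lists, in IDD+HTF (left) and IDD+HID (right). Points are genes, black bars are list medians and dotted lines mark 1.5-fold. The median of the other liver angiocrine factors, 0.35 and 0.74, lies furthest to the right in each panel.

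Genes with the most similar levels over the 24 combinations of class and library were looked up for the 3 genes named by the choice, by Pearson's r of log2(CPM + 10) among 14003 genes. These combinations share libraries and classes, so r only describes where a gene is found. Pdgfb was closest to Gm47863 (r = 0.909), Cmklr1 (0.896) and Il15 (0.877). Vegfc was closest to Jag1 (0.971), Col5a2 (0.965) and Fbn1 (0.955). Inhbb was closest to Enpp6 (0.986), Afap1l1 (0.985) and Tmem98 (0.982).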

How the data were processed

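Single-cell RNA of 3 mouse livers, 1 mouse a group, was read with a 10x 3′ kit, per the labels' protocols. The authors deposited whole-number UMI counts for each gene and droplet, not normalized. The submitters' processing notes name GRCm38 and Seurat 4, and which programs aligned and counted the reads is not given in the sources used here. Gene IDs with versions matched GENCODE M21 for 54587 of 55421 genes.

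Cells had at least 1000 UMIs, 300 genes and at most 20% mitochondrial UMIs. Scrublet marked 1.72%, 0.16% and 0.20% of barcodes as doublets and these were removed. In IDD+HTF and IDD+HID it marked too few to have worked, so doublets may remain. Cells were clustered with scanpy 1.11.5 (2000 variable genes, 30 components, 15 neighbours, Leiden through igraph 0.11.9 at resolution 1). The 10 genes and 109 partner genes were left out. The 25 clusters were named from 160 markers in 20 lists. A name needed a mean log2 ratio of at least 1 over the median of all clusters, with 20 CPM added. It also needed a lead of 0.5 over the next list and at least 3 markers detected. No other list could have more markers among the top 10 genes of the cluster. Endothelial clusters were split in a second step, with thresholds set after their profiles were seen. Clusters 9 and 13, apart from the sinusoidal clusters in that step, are called by number, and 3 other clusters stayed unnamed. Differences between class levels may therefore come from these rebuilt names.

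UMIs were summed per class and library and divided by the class total (CPM). Ratios have exact conditional binomial intervals, levels exact Poisson intervals and shares exact Clopper-Pearson intervals (scipy 1.17.1), which cover counting error only. A gene is measured with at least 50 UMIs in a pair and called at 1.5-fold. Thinned shares are the expected share of cells with a UMI when each cell is drawn down to 1000 UMIs. RNA carried over from another class was estimated from that class's summed markers. edgeR 4.0.16 gave only TMM factors. The scripts were tested on simulated data. The members and lists were chosen with earlier results of these data known. The text names every member, 7 receptor genes, and the partner genes of sinusoidal cells called at 1.5-fold with a counting interval that leaves out no difference, at most 15 a comparison by size. Axl and Cxcl12, and Dkk3, Rspo3 and St14 in 1 comparison each, fall outside that rule and are named only to complete a list's calls. The HGF activation list between the treated libraries is not reported here. Alternatives changed cell filters, scaling, class rules, the UMI minimum and the fold, and some were added after seeing the data.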

Additional observations from a re-analysis of the deposited data

Results flagged for a closer look

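Some of the 10 genes were called in opposite directions in different cells under the same contrast, and none of these differences between cell types was tested, as each group is 1 mouse. Ccn1 in IDD+HID over IDD had a log2 ratio of 2.03 in Kupffer-like cells, against -0.79 in cluster 9 and -1.07 in cluster 13. In IDD+HTF over IDD the Ccn1 ratios were 2.69 in Kupffer-like cells, -1.40 in cluster 9 and -0.96 in cluster 13. Between the treated libraries, IDD+HID over IDD+HTF, Ccn1 was at 0.61 in cluster 9 and -0.66 in Kupffer-like cells. In cluster 13 the Ccn1 ratios were -0.49 and -0.43 without the cell of each library with the most Ccn1 UMIs, for IDD+HID and IDD+HTF over IDD. Without 2 such cells they were -0.06 and -0.04, so the lower Ccn1 of cluster 13 rests on few cells. Kupffer-like Ccn1 lies below the level of the free-RNA droplets in each library, and 29 of the 33 UMIs of cluster 9 in IDD+HTF came from 1 cell.

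Ccn2 in IDD+HTF over IDD was at 1.18 in sinusoidal cells and 1.62 in stellate-like cells, against -1.94 in cluster 13. Ednrb in IDD+HTF over IDD was at 1.12 in cluster 13 and -0.88 in Kupffer-like cells, where 1 cell of IDD held 18 of 19 UMIs and the ratio was 3.1 without it.

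Classes too small to be compared also held some of the genes. Ccn2 stood at 530 CPM in 9 cholangiocyte-like cells of IDD+HTF and 288 CPM in 14 of IDD+HID, and had 0 UMIs in 6 of IDD. Ccn1 stood at 834 CPM in the 24 cells of unnamed cluster 0 in IDD+HID, led by Slpi, Igfbp5 and Dcn, against 304 CPM in 3 cells of IDD. In unnamed cluster 16 of IDD+HTF, led by Lyz2 and H2-Ab1, Inhba stood at 48 CPM, with all 32 UMIs in 1 cell, and Ednrb at 60 CPM, with 29 of 40 UMIs in 1 cell.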

How the results depend on the processing

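The alternatives were tried on the counts of called genes in sinusoidal cells and on each ratio. Between IDD+HID and IDD, 3 genes were higher and 3 lower. Classes named from per-cell scores gave 5 and 0, since Pdgfb (log2 -2.66) and Vegfc (-1.17) then fell under the UMI minimum, cluster 12 alone gave 1 higher, cluster 1 alone gave 1 lower and no UMI minimum gave 5 lower. Between IDD+HTF and IDD, 3 were higher and 2 lower. Per-cell scores gave 5 and 0, leaving out the cell with the most UMIs gave 5 higher, a fold of 2 gave 1 and 1, cluster 1 alone gave 0 lower and cluster 12 alone 1. Between IDD+HID and IDD+HTF, 1 was higher and 3 lower. Per-cell scores gave 2 higher, clusters weighted as in IDD and cluster 1 alone each gave 1 lower, and a minimum of 20 UMIs or none gave 5 lower. In all, 91 of these alternative counts stayed within 1.5 times and 17 did not.

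Of the single ratios, 702 stayed within the counting interval of the main value, 129 moved out of it and 12 of called genes changed sign. A change of sign was counted only where the gene was called in the main setting, so sign changes of uncalled genes lie among the 702 and 129. Vegfc in IDD+HID over IDD+HTF in sinusoidal cells, for example, ranged from -0.85 to 0.68. In sinusoidal cells Ccn2 in IDD+HID over IDD became 1.42 with per-cell scores and 0.042 in cluster 1 alone, and in IDD+HTF over IDD it became -0.063 in cluster 12 alone. In clusters 9 and 13 pooled, Vegfc in IDD+HTF over IDD became -0.15 in cells of at least 2000 UMIs. There, in IDD+HID over IDD+HTF, Ccn2 became 0.052 in cells with at most 10% mitochondrial UMIs and 0.086 with per-cell scores, and Edn1 became 0.38 in cluster 9 alone. In stellate-like cells Vegfc in IDD+HID over IDD became 0.12 in cells with few sinusoidal markers. Without the 2 cells of each library with the most UMIs of the gene, a setting added after seeing the data, Edn1 in IDD+HTF over IDD became 0.44 in cluster 13, and in cluster 12 Ccn1 in IDD+HID over IDD became 0.10 and Ednrb in IDD+HTF over IDD 0.12. Without 1 such cell Ednrb in IDD+HTF over IDD became 3.1 in Kupffer-like cells, where IDD then had 1 UMI. The cause of the other changes was not tested. Over the settings run in sinusoidal cells, log2 ratios of IDD+HID over IDD ranged from 0.99 to 1.42 for Inhbb, -4.21 to -2.66 for Pdgfb, -2.83 to -0.73 for Vegfc, 0.37 to 2.52 for Ednrb and 0.07 to 0.99 for Hgf.

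No paired analysis was possible because each group holds 1 mouse. Replicates could not be left out for the same reason. Depth limits Pdgfb and Vegfc, which rest on few UMIs in sinusoidal cells of IDD, while Edn1, Ccn1 and Ccn2 in the small clusters rest on few cells. Inhba and Edn1 in sinusoidal cells were not measured. Differences between mice, cell capture and dissociation cannot be told apart from the treatments.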

Other observations

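Ccn1 was highest in the rarest epithelial and mural cells. Cholangiocyte-like cells, of the bile ducts, held 2927, 2342 and 4425 CPM in IDD, IDD+HTF and IDD+HID, from 6, 9 and 14 cells. Smooth muscle or portal fibroblast-like cells held 1993, 688 and 1689 CPM, from 6, 10 and 13 cells. Ccn1 was among the leading genes of the cholangiocyte-like cluster. Inhba stood at 111, 35.3 and 91.4 CPM in cholangiocyte-like cells, from 7, 3 and 41 UMIs. In the 3 cells of unnamed cluster 0 in IDD, 1 cell held 97 of 99 Ccn2 UMIs.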
